A study of Glycine max with 24 samples.

Results

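The 9 genes described here act in photoperiodic flowering and stem growth of soybean (Glycine max). They are the maturity genes E1, E3 and E4, the E1-like genes E1La and E1Lb, the FLOWERING LOCUS T (FT) genes FT2a, FT2b and FT5a, and Dt1, a TERMINAL FLOWER 1 (TFL1) gene. They were chosen by ID and by no cutoff on measured values, but with earlier results of these data known. All 9 were among the 57105 gene IDs of the leaf and root count tables. Their IDs are Glyma.06G207800 for E1, Glyma.04G156400 for E1La, Glyma.04G143300 for E1Lb, Glyma.19G224200 for E3, Glyma.20G090000 for E4, Glyma.16G150700 for FT2a, Glyma.16G151000 for FT2b, Glyma.16G044100 for FT5a and Glyma.19G194300 for Dt1. A RefSeq gene table holds all 9 names on the chromosome that the ID gives, E3 under the symbol PHYA3, but it shares no ID with the count tables, and no coordinates are therefore given.

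RNA was sequenced from leaves and roots of transgenic soybean overexpressing GmNFYA, which encodes a DNA-binding subunit of the transcription factor NF-Y, and of the wild-type cultivar Jack. Plants of each genotype had either received 150 mM NaCl for 6 h or were untreated (0 h), which gave 8 groups of 3 libraries, 24 in all. No untreated group at 6 h is named, so that NaCl and the time that passed, including the time of day, cannot be told apart, and replicates are not said to be separate plants. The spread that p-values rest on may therefore be technical. The promoter of the transgene, the number of lines, plant age, day length and the alleles of Jack at the maturity loci are not stated by the labels.

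As background, soybean is a short-day plant. The phytochrome A photoreceptors E3 and E4 sense red and far-red light and keep E1 expressed in long days, and E1, a legume B3-like transcription factor, and its copies E1La and E1Lb repress FT2a and FT5a. The FT proteins made in leaves move to the shoot apex and promote flowering, while the TFL1 protein Dt1 opposes them there and keeps the stem apex vegetative.

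Genes were assigned 17696429 to 21053889 reads in a leaf library and 17005570 to 23459341 reads in a root library. Levels are given as read counts or as CPM (counts per 1000000 assigned reads, scaled by TMM over all 24 libraries), with SD over 3 libraries. Gene lengths were not used, so that levels are compared between samples and not between genes. The words rose, fell and differed are kept for genes with an adjusted p under 0.05 (edgeR's quasi-likelihood test, Benjamini-Hochberg adjustment over all IDs tested). ID 02G303800 had been singled out in an earlier look at these data for its difference between these genotypes, so that it is no independent check of the labels. It was at 671 to 825 CPM in GmNFYA leaves, against 12.9 to 29.4 CPM in Jack leaves, and at 317 to 510 CPM in GmNFYA roots, against 0.858 to 7.92 CPM in Jack roots. As an organ check, 6 Rubisco small subunit and activase IDs recalled from published work summed to 8333 CPM or more in every leaf library and to 98.2 CPM or less in every root library. A pair of Nod factor receptor IDs summed to 3.40 CPM or more in every root library and to 0.265 CPM or less in every leaf library.

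The 9 genes fell into 4 groups by where their reads were found. E3 and E4 had reads in all 24 libraries, 471 to 1011 and 939 to 1703 per leaf library and 86 to 153 and 1520 to 2781 per root library. E1, E1La and E1Lb had reads in all 12 leaf libraries, with 277, 189 and 107 reads over the 12, and E1 had 1 read over the 12 root libraries while E1La and E1Lb had 0. Dt1 was the reverse, with 19 to 240 reads in every root library and 0 reads over the 12 leaf libraries. FT2a had 10 reads in leaf and 1 in root, FT5a 11 in leaf and 1 in root, and FT2b 0 in all 24 libraries. In summed leaf libraries a count of 0 allows a level of up to 0.0127 CPM before TMM scaling, and in summed root libraries up to 0.0124 CPM (3 counts over the 12 libraries). Such limits, and the intervals below, cover counting error only.

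**Figure D1:**
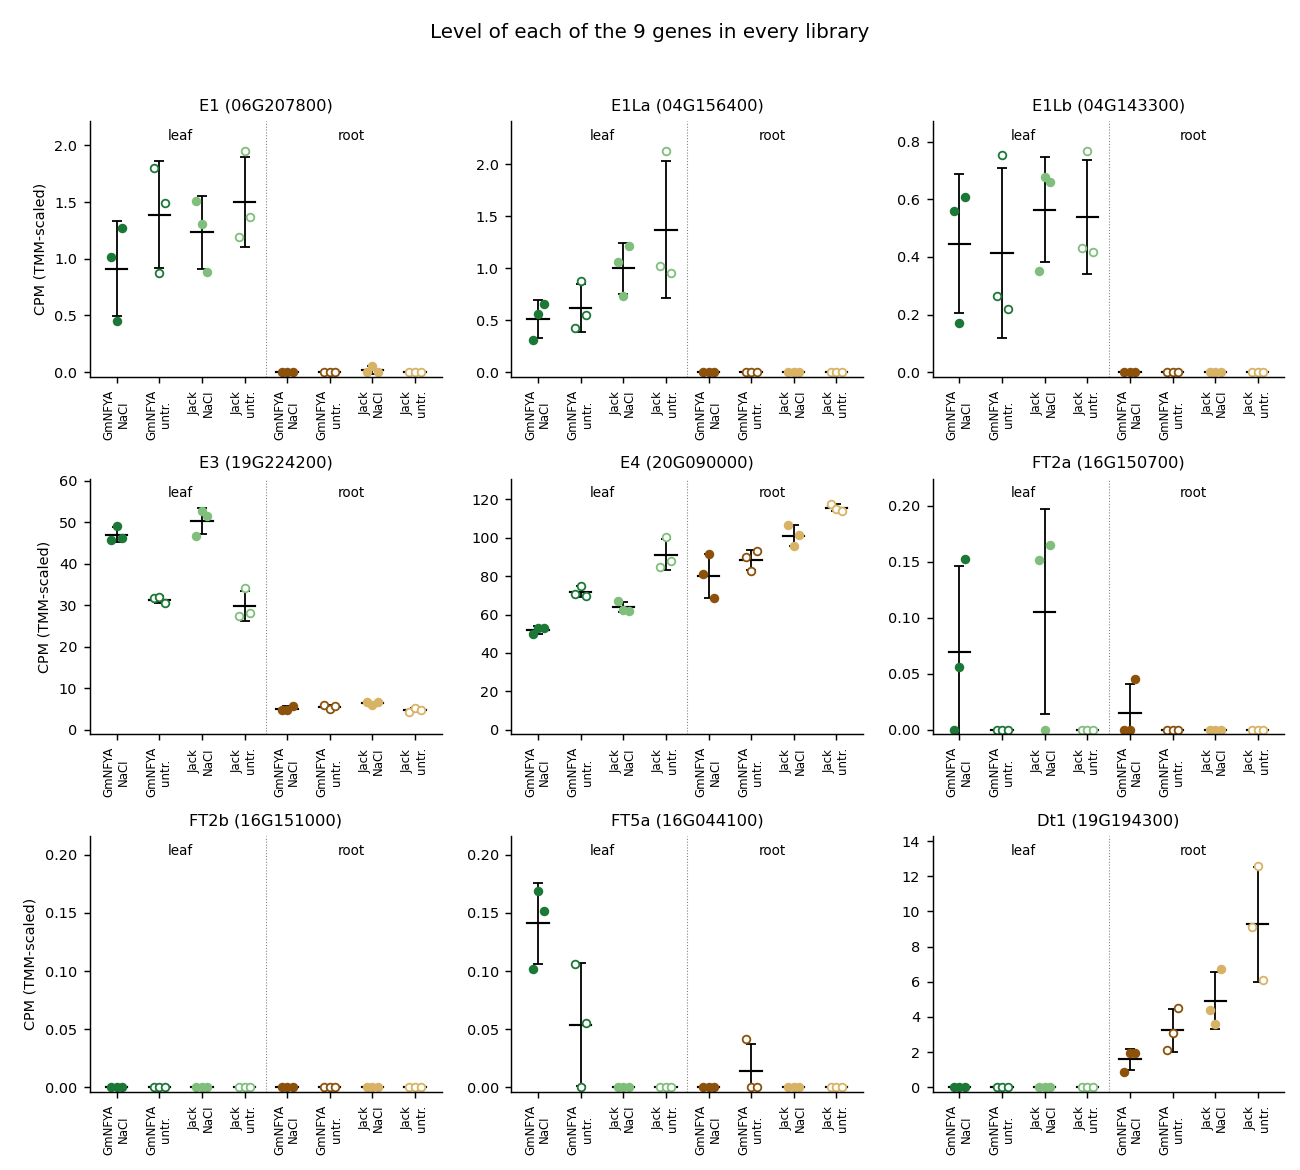
CPM (TMM-scaled over 24 libraries, linear axes that differ between panels) of each of the 9 genes in every library, with the mean (long bar) and SD (whiskers) over 3 libraries. E1, E1La and E1Lb have points above 0 in all leaf libraries, Dt1 in all root libraries, E3 is higher in leaf than in root, and FT2b lies at 0 throughout.

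E3 and E4, the genes with reads in every library of both organs, each differed between leaf and root in all 4 comparisons, where 70.9% of all tested IDs differed in untreated GmNFYA, 69.4% in GmNFYA with NaCl, 69.9% in untreated Jack and 69.8% in Jack with NaCl. E3 was higher in leaf, 9.30-fold in GmNFYA with NaCl (log2 3.22 ± 0.11 SE), 5.69-fold in untreated GmNFYA (log2 2.51 ± 0.11), 7.84-fold in Jack with NaCl (log2 2.97 ± 0.11) and 6.27-fold in untreated Jack (log2 2.65 ± 0.11), with adjusted p of 1.26e-15 or less. E4 was lower in leaf, with log2 fold changes of -0.63 ± 0.09 in GmNFYA with NaCl (adjusted p = 2.94e-06), -0.30 ± 0.09 in untreated GmNFYA (0.00607), -0.66 ± 0.09 in Jack with NaCl (1.32e-06) and -0.34 ± 0.09 in untreated Jack (0.00229). The pair of phytochrome A genes differed between organs in opposite directions, E3 higher and E4 lower in leaf in each of the 4 comparisons. The size of the E4 difference depends on the scaling between organs. In untreated GmNFYA, E4 was at 66.15 CPM in leaf and 102.4 CPM in root before TMM scaling. With TMM scaling the means were 71.8 and 88.5 CPM. Before scaling E4 was likewise lower in leaf in all 4 comparisons.

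E1, E1La, E1Lb and Dt1 had 0 or 1 reads in one organ and passed the filter on low counts only through the other, so that their organ differences are a description with no test. Their folds between organs set the observed level against 3 counts over the group with 0 reads. Such minimum folds leave out the counting error of the organ with reads. E1 was at least 20.4-fold higher in leaf than in root in GmNFYA with NaCl, 33.7-fold in untreated GmNFYA and 31.5-fold in untreated Jack, and in Jack with NaCl, where leaf had 71 reads against 1 in root, the ratio was 74.6 (95% counting interval 12.96 to 2986). E1La was at least 11.2- to 28.6-fold higher in leaf over the 4 comparisons and E1Lb at least 9.43- to 11.3-fold. Dt1 was lower in leaf than in root by at least 30.0-fold in GmNFYA with NaCl, 56.4-fold in untreated GmNFYA, 94.3-fold in Jack with NaCl and 157-fold in untreated Jack.

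NaCl in leaves went with more E3 and less E4 mRNA in both genotypes, while the 3 E1-family genes did not pass the test. In GmNFYA leaves E3 was at 45.8, 49.1 and 46.1 CPM with NaCl, against 31.7, 31.9 and 30.4 CPM untreated. In Jack leaves E3 was at 46.6, 52.7 and 51.4 CPM with NaCl, against 27.4, 34.1 and 28.0 CPM untreated. Every library with NaCl was above every untreated library of the same genotype. The rise was 1.55-fold in GmNFYA (log2 0.63 ± 0.10 SE, adjusted p = 0.000244) and 1.73-fold in Jack (log2 0.79 ± 0.10, adjusted p = 7.92e-05).

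E4 moved the other way in the same libraries. In GmNFYA leaves it was at 49.8, 53.0 and 53.2 CPM with NaCl, against 70.7, 75.0 and 69.8 CPM untreated. In Jack leaves it was at 67.01, 62.6 and 62.1 CPM with NaCl, against 84.9, 101 and 88.1 CPM untreated. Again the libraries did not overlap within a genotype. E4 fell 1.34-fold in GmNFYA (log2 -0.42 ± 0.09, adjusted p = 0.00243) and 1.39-fold in Jack (log2 -0.48 ± 0.09, adjusted p = 0.00141). E3 and E4 were the 2 of 5 tested genes that differed with NaCl in each genotype, beside 36.1% of all tested IDs in GmNFYA leaves and 33.6% in Jack leaves. The median log2 fold change of the 5 genes was -0.22 in GmNFYA and -0.24 in Jack, and that of all tested IDs -0.02 and -0.01. Summed Rubisco small subunit and activase IDs ranged from 8333 to 8923 CPM with NaCl and from 13498 to 17634 CPM untreated in GmNFYA leaves. In Jack leaves they ranged from 11996 to 17522 CPM with NaCl and from 18852 to 26272 CPM untreated. Of these IDs, 4 of 6 passed the test as lower with NaCl in GmNFYA leaves and 3 of 6 in Jack leaves. Their part in the E3 and E4 differences was not tested, and in bulk tissue fewer cells of a type and less RNA per cell cannot be told apart.

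Within a library, the reads of E3 as a share of the reads of E3 and E4 do not depend on the scaling, although they do depend on the lengths of the 2 genes. The share was 47.5 ± 0.915% with NaCl and 30.4 ± 0.583% untreated in GmNFYA leaves, and 44.0 ± 2.60% with NaCl and 24.6 ± 0.617% untreated in Jack leaves (SD, n = 3 each). No library with NaCl overlapped an untreated one, and the lowest of the 6 with NaCl, Jack replicate 1, was at 41.0% (exact 95% binomial interval 39.0 to 43.1%). In roots the share was between 3.56 and 7.66% in all 12 libraries. It was 6.04 ± 1.45% with NaCl and 5.85 ± 0.269% untreated in GmNFYA roots, where the libraries overlapped, and 5.96 ± 0.151% with NaCl and 3.96 ± 0.424% untreated in Jack roots, where they did not.

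**Figure D2:**
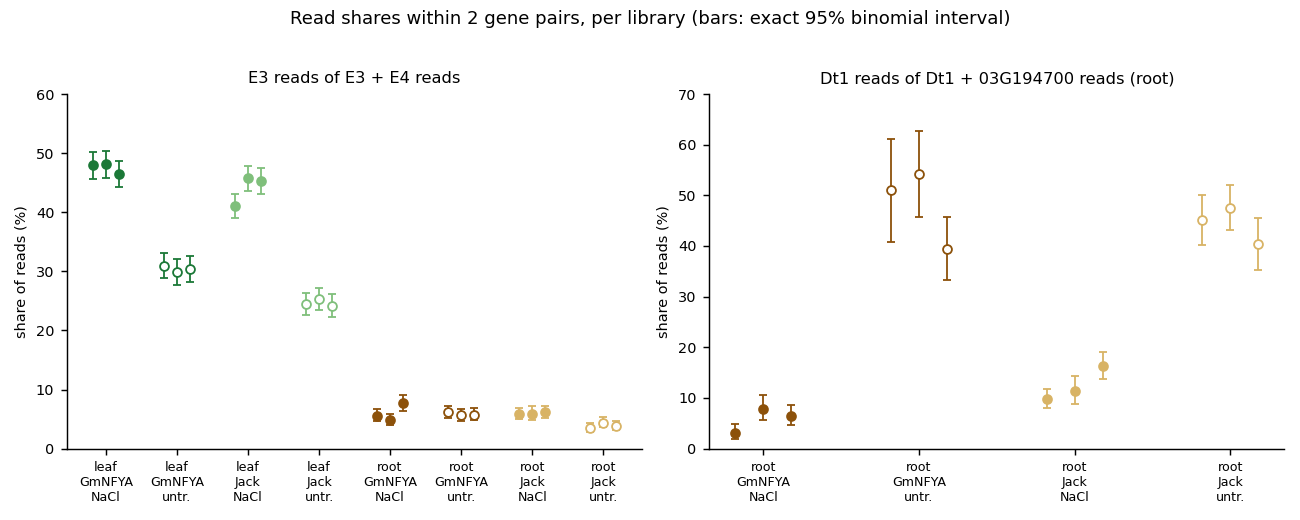
Share of reads (%) within a pair of genes in each library, with exact 95% binomial intervals, for E3 among E3 and E4 reads (left) and for Dt1 among reads of Dt1 and ID 03G194700 in root (right). Leaf libraries with NaCl have E3 shares of 41.0 to 48.1% against 24.1 to 31.0% untreated, and root libraries with NaCl have Dt1 shares of 3.17 to 16.3% against 39.4 to 54.2% untreated.

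In roots, of the phytochrome A genes, E3 rose with NaCl in Jack, while E3 in GmNFYA and E4 in both genotypes did not pass the test. E3 was at 4.80, 4.67 and 5.67 CPM with NaCl, against 5.90, 4.95 and 5.65 CPM untreated in GmNFYA, and at 6.58, 6.01 and 6.60 CPM with NaCl, against 4.34, 5.30 and 4.64 CPM untreated in Jack. The GmNFYA libraries overlapped and the Jack libraries did not. E3 rose 1.36-fold in Jack roots (log2 0.44 ± 0.15, adjusted p = 0.0166), and its log2 fold change in GmNFYA roots was -0.11 ± 0.14 (adjusted p = 0.531). E4 had log2 fold changes of -0.13 ± 0.10 in GmNFYA roots (adjusted p = 0.266) and -0.18 ± 0.10 in Jack roots (adjusted p = 0.113). The call for E3 in Jack roots was lost without untreated replicate 1 or 3, with adjusted p of up to 0.0641.

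The NaCl response of E3 differed between the organs in GmNFYA plants. The difference, leaf minus root, was 0.71 ± 0.15 on the log2 scale (adjusted p = 0.000673), in a comparison in which 33.7% of tested IDs differed. In Jack it was 0.32 ± 0.15 (adjusted p = 0.117), where 26.7% of IDs differed. For E4 the difference was -0.33 ± 0.13 in GmNFYA (adjusted p = 0.0598) and -0.32 ± 0.13 in Jack (adjusted p = 0.0757), and neither passed the test. In Jack 0 genes passed by edgeR's quasi-likelihood test, while both E3 and E4 had an unadjusted p under 0.05 (0.0411 and 0.0230). E4 passed with DESeq2 in both genotypes and with RLE scaling in Jack. E4 also passed in GmNFYA without root NaCl replicate 3 (adjusted p = 0.0110) and in Jack without untreated leaf replicate 1 or 3 (as low as 0.0334), and E3 in Jack without untreated leaf replicate 2 (0.0185). E1, E1La, E1Lb and Dt1 had too few reads in one organ for this comparison.

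**Figure D3:**
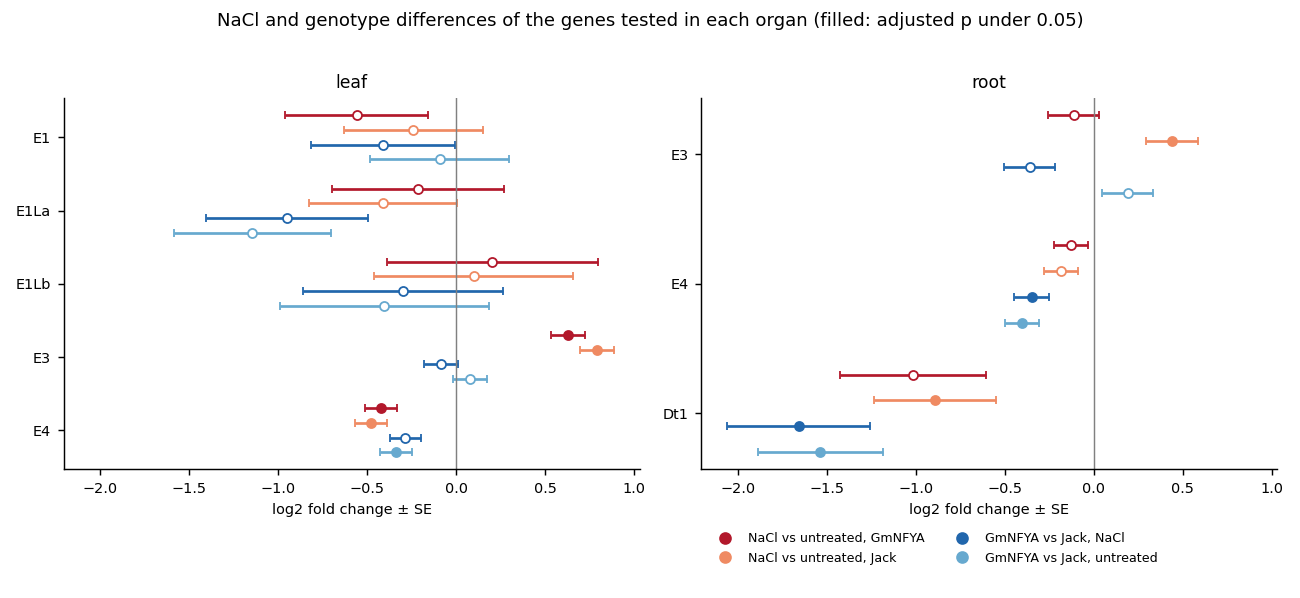
Log2 fold changes ± SE of the 5 genes tested in leaf and the 3 tested in root, for NaCl over untreated in GmNFYA and in Jack and for GmNFYA over Jack with NaCl and untreated, with filled points at adjusted p under 0.05. E3 lies right of 0 and E4 left of 0 for NaCl in both leaf comparisons, and E4 and Dt1 lie left of 0 for GmNFYA over Jack.

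The 3 E1-family genes were measured from few reads, 3 to 36 per leaf library, and none passed the test for NaCl. With NaCl, E1 had 20, 8 and 25 reads in GmNFYA leaves, against 34, 14 and 27 untreated, and 30, 25 and 16 reads in Jack leaves, against 22, 33 and 23 untreated. These counts overlapped in both genotypes. The log2 fold change of E1 was -0.56 ± 0.40 in GmNFYA (adjusted p = 0.308) and -0.24 ± 0.39 in Jack (adjusted p = 0.668). E1La had log2 fold changes of -0.22 ± 0.48 in GmNFYA and -0.41 ± 0.41 in Jack, and E1Lb of 0.20 ± 0.59 and 0.10 ± 0.56. With SEs of 0.39 to 0.59, a change of the size seen for E3 could have been missed in these genes at this depth.

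From low to high, E1 in leaf averaged 0.913 ± 0.418 CPM in GmNFYA with NaCl, 1.23 ± 0.323 CPM in Jack with NaCl, 1.39 ± 0.469 CPM in untreated GmNFYA and 1.501 ± 0.398 CPM in untreated Jack, and each neighbouring pair of groups overlapped. The order for E1Lb was 0.413 ± 0.295 CPM in untreated GmNFYA, then GmNFYA with NaCl, then untreated Jack, and 0.563 ± 0.183 CPM in Jack with NaCl, with overlap between all neighbours. E1La was the E1-family gene whose genotypes did not overlap. It had 6, 10 and 13 reads in GmNFYA leaves with NaCl, against 21, 14 and 22 in Jack leaves with NaCl, and 8, 14 and 10 reads in untreated GmNFYA leaves, against 19, 36 and 16 in untreated Jack leaves. In CPM, each GmNFYA library was below each Jack library of the same treatment, at up to 0.659 against 0.730 or more with NaCl and up to 0.878 against 0.951 or more untreated.

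The log2 fold change of E1La in GmNFYA against Jack was -0.95 ± 0.45 with NaCl (adjusted p = 0.225) and -1.15 ± 0.44 untreated (adjusted p = 0.166), and neither passed the test. Averaged over both treatments, a comparison added after the data were seen, it was -1.05 ± 0.32 (adjusted p = 0.0495), beside 11.4% of all tested leaf IDs that differed. That call was lost when any of 10 of the 12 libraries was left out, with adjusted p between 0.0417 and 0.123 over the 12. E1 had log2 fold changes of -0.41 ± 0.40 with NaCl (adjusted p = 0.599) and -0.09 ± 0.39 untreated (0.930), and E1Lb of -0.30 ± 0.56 (0.805) and -0.40 ± 0.59 (0.765).

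E4 was lower in GmNFYA than in Jack in both organs and both treatments, and passed the test in 3 of the 4 comparisons. In roots it was at 81.0, 91.4 and 68.5 CPM in GmNFYA with NaCl, against 106, 95.4 and 101 CPM in Jack with NaCl, and at 89.99, 82.7 and 92.9 CPM in untreated GmNFYA, against 118, 115 and 114 CPM in untreated Jack. In both treatments every GmNFYA root library was below every Jack root library, and the same held for the leaf libraries given above. The log2 fold change was -0.35 ± 0.10 in roots with NaCl (adjusted p = 0.0212), -0.40 ± 0.10 in untreated roots (adjusted p = 0.00637), -0.29 ± 0.09 in leaves with NaCl (adjusted p = 0.0621) and -0.34 ± 0.09 in untreated leaves (adjusted p = 0.0480). Over both treatments, in the comparison added after the data were seen, E4 was lower by 0.38 ± 0.07 on the log2 scale in roots (adjusted p = 0.000691) and by 0.31 ± 0.06 in leaves (adjusted p = 0.00669), beside 30.3 and 11.4% of tested IDs that differed.

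From low to high, the group means of E4 ran over GmNFYA leaves with NaCl (52.0 ± 1.92 CPM), Jack leaves with NaCl, untreated GmNFYA leaves, GmNFYA roots with NaCl, untreated GmNFYA roots, untreated Jack leaves, Jack roots with NaCl and untreated Jack roots (116 ± 1.79 CPM). Neighbours in that order overlapped from untreated GmNFYA leaves up to Jack roots with NaCl, and the 2 lowest groups and the highest group overlapped no neighbour.

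The single comparisons of E4 rest on few libraries. The call in untreated leaves was lost without any 1 of the 6 libraries (adjusted p 0.0513 to 0.175), and that in roots with NaCl was lost without GmNFYA replicate 1 or 3 or Jack replicate 1 (up to 0.1002). The untreated leaf call was also lost with no low-count filter (0.0692), with a replicate block (0.0555) and when the fit held only the compared groups (0.126), and the call in roots with NaCl with only the compared groups (0.0594). The summed Rubisco small subunit and activase IDs, given by range above for leaves, were lower in GmNFYA than in Jack leaves in both treatments, with no overlap. Their median log2 fold change was -0.61 with NaCl and -0.44 untreated. Of these IDs, 4 of 6 passed the test as lower with NaCl, 0 of 6 untreated and 6 of 6 over both treatments. The shares of all tested IDs that differed were 9.61, 4.51 and 11.4%. The part of the Rubisco IDs in the leaf differences of E4 and E1La was not tested. Reads with more than 1 alignment made up 5.53 ± 0.343% of reads in untreated GmNFYA roots and 9.64 ± 0.590% in untreated Jack roots (SD, n = 3 each), and their part in the root differences was not tested. Nor was that of the same Rubisco IDs in root, which summed to 24.5 to 31.8 CPM in GmNFYA and 71.0 to 98.2 CPM in Jack roots with NaCl. Untreated, they summed to 34.5 to 45.9 CPM in GmNFYA and 56.8 to 93.8 CPM in Jack roots. Of these IDs, 5 of 6 passed the test as lower in GmNFYA roots with NaCl and 4 of 6 untreated. Of all tested root IDs, 16.9% differed with NaCl and 23.3% untreated. The Nod factor receptor pair summed to 4.53 to 4.82 CPM in GmNFYA and 3.40 to 4.49 CPM in Jack roots with NaCl. Untreated, it summed to 28.4 to 37.0 CPM in GmNFYA and 23.6 to 26.8 CPM in Jack roots. In each treatment 1 of 2 IDs passed the test as higher in GmNFYA, beside the same root shares.

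E3, the other phytochrome A gene, did not pass the test between genotypes in either organ. Its log2 fold change in GmNFYA against Jack was -0.08 ± 0.09 in leaves with NaCl (adjusted p = 0.650), 0.08 ± 0.10 in untreated leaves (0.722), -0.36 ± 0.14 in roots with NaCl (0.0981) and 0.19 ± 0.14 in untreated roots (0.370). In roots with NaCl the libraries did not overlap, with 5.67 CPM as the highest GmNFYA value against 6.01 CPM as the lowest Jack value. In level, the 2 leaf groups with NaCl were the highest and overlapped, with means of 47.0 ± 1.80 CPM in GmNFYA and 50.3 ± 3.21 CPM in Jack. The 2 untreated leaf groups came next and overlapped as well, with means of 31.3 ± 0.801 CPM in GmNFYA and 29.8 ± 3.69 CPM in Jack. All root groups lay below, with means of 6.397 ± 0.337 CPM in Jack with NaCl and 4.76 ± 0.491 CPM in untreated Jack at the ends and both GmNFYA groups between.

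Dt1 showed the largest genotype difference among the 3 genes tested in root. With NaCl it was at 0.860, 1.94 and 1.94 CPM in GmNFYA roots, against 4.39, 3.62 and 6.75 CPM in Jack roots. Untreated, it was at 2.10, 3.07 and 4.52 CPM in GmNFYA roots, against 9.13, 12.6 and 6.07 CPM in Jack roots. The genotypes did not overlap in either treatment. Dt1 was 3.16-fold lower in GmNFYA with NaCl (log2 -1.66 ± 0.40, adjusted p = 0.0152) and 2.90-fold lower untreated (log2 -1.54 ± 0.35, adjusted p = 0.00797). The call with NaCl was lost without GmNFYA replicate 1 (adjusted p = 0.0536), and the untreated call was kept without any 1 library. The group means were 1.58 ± 0.624 CPM in GmNFYA with NaCl, 3.23 ± 1.22 CPM in untreated GmNFYA, 4.92 ± 1.63 CPM in Jack with NaCl and 9.26 ± 3.26 CPM in untreated Jack, and each group but the lowest overlapped a neighbour. Over both treatments Dt1 was 3.02-fold lower (log2 -1.60 ± 0.27, adjusted p = 0.000851).

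Dt1 and E4 were the 2 of 3 tested genes that differed between genotypes in each root comparison, beside 16.9% of all tested root IDs with NaCl and 23.3% untreated. In leaves with NaCl 0 of 5 tested genes passed by edgeR's quasi-likelihood test, beside 9.61% of all tested leaf IDs. DESeq2 called 1, beside 1811 IDs higher and 2614 lower of 35214. By edgeR's test E4 alone had an unadjusted p under 0.05 (0.00690), and the share of all IDs at that threshold is not given. In untreated leaves 1 of 5 passed, beside 4.51%. The median log2 fold change of the tested genes was -0.36 in roots with NaCl, -0.40 in untreated roots, -0.30 in leaves with NaCl and -0.34 in untreated leaves, where the medians over all tested IDs were -0.02, 0.01, -0.01 and -0.01 in the same order.

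With NaCl, Dt1 was lower in both genotypes and passed the test in Jack. The log2 fold change was -1.01 ± 0.41 in GmNFYA roots, where the libraries did not overlap (adjusted p = 0.0508), and -0.89 ± 0.34 in Jack roots, where they did (adjusted p = 0.0415). The adjusted p ran from 0.0229 to 0.190 in GmNFYA when 1 library was left out, passing without untreated replicate 1, and from 0.0139 to 0.156 in Jack, failing without untreated replicate 1 or 2 or NaCl replicate 1 or 2. In GmNFYA it also passed with DESeq2 (0.0113), a replicate block (0.0427) or only the compared groups (0.0237), and in Jack it failed with no low-count filter (0.0608). E3 and Dt1 were the 2 of 3 tested genes that differed in Jack roots, where 56.9% of all tested IDs differed. In GmNFYA roots 0 of 3 passed by edgeR's quasi-likelihood test, where 56.7% of IDs differed by the same test. DESeq2 called 1, beside 10247 IDs higher and 10147 lower of 36390. By edgeR's test Dt1 alone had an unadjusted p under 0.05 (0.0289), and the share of all IDs at that threshold is not given. In GmNFYA roots the share of tested members called was not above that of all root IDs.

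Other values moved with NaCl in the same root libraries. The Nod factor receptor pair summed to 4.53 to 4.82 CPM with NaCl and 28.4 to 37.0 CPM untreated in GmNFYA roots. In Jack roots the pair summed to 3.40 to 4.49 CPM with NaCl and 23.6 to 26.8 CPM untreated. In each genotype 2 of 2 IDs were lower, beside 56.7% of all tested IDs that differed in GmNFYA and 56.9% in Jack. Their median log2 fold changes were -2.85 in GmNFYA and -2.62 in Jack. Reads assigned to genes made up 76.7 to 76.8% with NaCl and 75.1 to 76.1% untreated in GmNFYA roots, and 77.3 to 78.2% with NaCl and 70.8 to 72.3% untreated in Jack roots. Their part in the Dt1 and E3 differences was not tested.

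Whether NaCl acted differently in the 2 genotypes was tested as an interaction. By edgeR's quasi-likelihood test 0 of the 5 leaf genes and 0 of the 3 root genes passed, beside 2.45 and 8.29% of all tested IDs, and DESeq2 also called 0 in each. In root, E3 alone had an unadjusted p under 0.05, and its difference was -0.55 ± 0.20 on the log2 scale, GmNFYA minus Jack (adjusted p = 0.112). For Dt1 it was -0.12 ± 0.53 (adjusted p = 0.919) and for E4 0.05 ± 0.14 (adjusted p = 0.854). In leaf, where no gene had an unadjusted p under 0.05, it was -0.16 ± 0.13 for E3 (adjusted p = 0.627) and 0.05 ± 0.13 for E4 (adjusted p = 0.895).

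The FT genes had too few reads to be tested. FT2a, the leaf-made florigen that E1 represses, had 0, 1 and 3 reads in GmNFYA leaves with NaCl, against 0 in all 3 untreated libraries, and 3, 0 and 3 reads in Jack leaves with NaCl, against 0 in all 3 untreated libraries. All 10 leaf reads came from libraries with NaCl, 4 of 6 of which had any, and 1 read came from a GmNFYA root library with NaCl. Over a group of 3 libraries this was 0.0693 CPM before TMM scaling (exact 95% Poisson interval 0.0189 to 0.178) in GmNFYA and 0.0979 CPM (0.0359 to 0.213) in Jack with NaCl, and a count of 0 allows up to 0.0523 and 0.0497 CPM in the untreated groups. Set against 3 counts over the untreated group, the level with NaCl was 1.24-fold in GmNFYA and 1.83-fold in Jack. These folds leave out the counting error of the 4 and 6 reads, and the intervals reach below the limits of the untreated groups.

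FT5a, a florigen gene of the same family, had 2, 3 and 3 reads in GmNFYA leaves with NaCl and 2, 0 and 1 in untreated GmNFYA leaves, against 0 reads in all 6 Jack leaf libraries. All 11 leaf reads came from GmNFYA, as did the 1 root read. Over the 6 leaf libraries of a genotype this was 0.0956 CPM before TMM scaling (0.0477 to 0.171) in GmNFYA, while 0 reads allow up to 0.0247 CPM in Jack. With NaCl the GmNFYA level was 2.67-fold that of Jack when Jack was set at 3 counts over the group. This fold leaves out the counting error of the 8 GmNFYA reads. Fitted without a filter on low counts, FT5a had an unadjusted p of 0.0152 with NaCl and 0.0946 untreated and adjusted p of 0.127 and 0.416, and FT2a had adjusted p of 0.237 for NaCl in GmNFYA leaves and 0.156 in Jack leaves, so that neither gene passed in these leaf comparisons. Between organs in the same kind of fit, FT5a had an adjusted p of 0.0173 in GmNFYA with NaCl, from 8 reads in leaf and 0 in root. It had 0.338 in untreated GmNFYA, and FT2a had 0.342 in GmNFYA and 0.0694 in Jack with NaCl. With 0 or few reads in an organ and no filter, these values are a description and are not counted as a test passed. FT2b, whose ID lies close to that of FT2a on chromosome 16, stayed at 0 reads, below the limit of 0.0127 CPM over all leaf libraries.

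Other IDs of the pathway, recalled from published work and annotated by no table used here, are given by ID and by the list they were put on. Of 9 further FT and TFL1 list IDs, 6 had 0 reads in leaf and 7 had 0 reads in root. The TFL1 list ID 03G194700 had, like Dt1, 0 reads in all leaf libraries and reads in all root libraries, but moved with NaCl in the opposite direction. It was at 26.3, 22.7 and 28.1 CPM in GmNFYA roots with NaCl, against 2.02, 2.60 and 6.97 CPM untreated, and at 40.5, 28.1 and 34.7 CPM in Jack roots with NaCl, against 11.1, 13.9 and 8.99 CPM untreated. It rose by a log2 fold change of 2.76 ± 0.37 in GmNFYA (adjusted p = 0.000113) and 1.62 ± 0.34 in Jack (adjusted p = 0.00217).

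Dt1 reads made up 5.83 ± 2.42% of the reads of this pair with NaCl and 48.2 ± 7.81% untreated in GmNFYA roots, and 12.5 ± 3.39% with NaCl and 44.3 ± 3.67% untreated in Jack roots (SD, n = 3 each). The groups did not overlap in either genotype, a pattern for which an exact permutation test of 3 against 3 libraries cannot go below p = 0.1. Like Dt1, 03G194700 was lower in untreated GmNFYA than in untreated Jack roots (log2 -1.58 ± 0.38, adjusted p = 0.0148), and with NaCl it did not pass the test. The other ID of that list tested in root, 02G069500, fell with NaCl in GmNFYA (log2 -0.74 ± 0.22, adjusted p = 0.00964) and in Jack (log2 -0.63 ± 0.23, adjusted p = 0.0289).

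**Figure D4:**
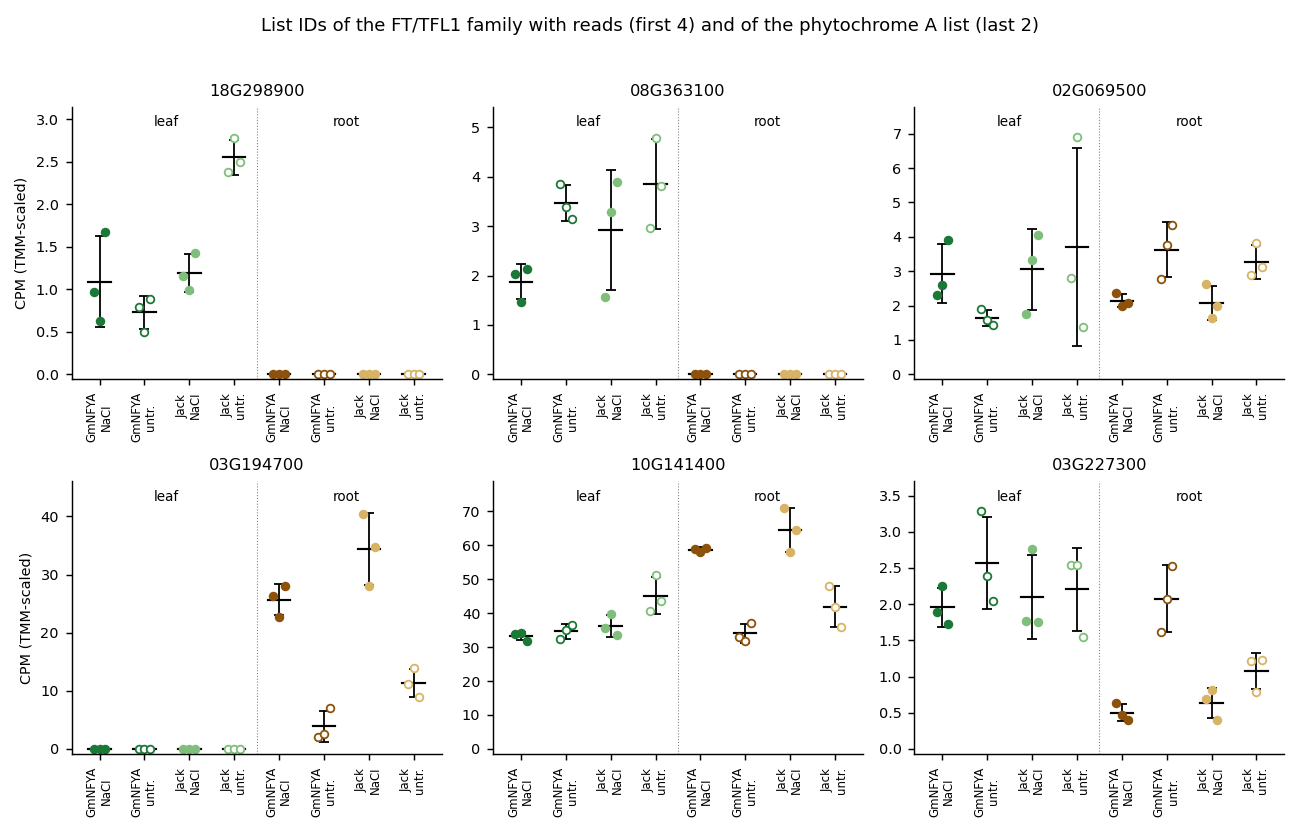
CPM (TMM-scaled over 24 libraries, linear axes that differ between panels) in every library, with mean and SD over 3 libraries, of the 4 FT and TFL1 list IDs with reads and the 2 phytochrome A list IDs. 03G194700 is at 0 in leaf and at 22.7 to 40.5 CPM in roots with NaCl against 2.02 to 13.9 CPM in untreated roots, and 10G141400 is higher in roots with NaCl than in untreated roots.

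In leaf, 3 of the 9 FT and TFL1 list IDs were tested, and the only one that passed a NaCl or genotype test was 18G298900. It was at 0.794, 0.502 and 0.883 CPM in untreated GmNFYA leaves, against 2.37, 2.78 and 2.50 CPM in untreated Jack leaves, and had 0 reads in root. These groups were far apart, with a log2 fold change of -1.79 ± 0.36 (adjusted p = 0.0143). In Jack leaves it fell with NaCl to 1.19 ± 0.220 CPM, against 2.55 ± 0.206 CPM untreated (log2 -1.06 ± 0.34, adjusted p = 0.0276), and in GmNFYA leaves it was at 1.09 ± 0.536 CPM with NaCl and 0.726 ± 0.1995 CPM untreated (adjusted p = 0.221).

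Of the 2 other phytochrome A list IDs, 10G141400 rose with NaCl in roots of GmNFYA (log2 0.80 ± 0.10, adjusted p = 6.20e-06) and Jack (log2 0.64 ± 0.10, adjusted p = 6.94e-05), where E4 did not pass the test. It fell in Jack leaves (log2 -0.28 ± 0.10, adjusted p = 0.0487), and its organ difference in the NaCl response, leaf minus root, was -0.85 ± 0.15 in GmNFYA and -0.94 ± 0.15 in Jack (adjusted p = 0.000143 and 7.55e-05). For E3 that difference had the opposite sign, and it passed the test in GmNFYA but not in Jack. 03G227300 fell with NaCl in GmNFYA roots (log2 -2.02 ± 0.33, adjusted p = 7.54e-05). Its leaf minus root difference passed the test in GmNFYA with the sign that E3 had, and did not pass in Jack. Between untreated roots of GmNFYA and Jack, 10G141400 was lower (log2 -0.32 ± 0.10, adjusted p = 0.0361), as E4 was, and 03G227300 higher (log2 0.91 ± 0.30, adjusted p = 0.0384) in GmNFYA.

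The CONSTANS-like list held 4 IDs, all tested in leaf, where 2 fell with NaCl in GmNFYA (36.1% of all tested IDs differed) and 1 in Jack (33.6%). In leaves with NaCl, 2 passed the test as lower in GmNFYA than in Jack (9.61%). The largest fall was that of 18G278100, by a log2 fold change of -1.10 ± 0.14 in GmNFYA (adjusted p = 7.20e-05) and -0.56 ± 0.14 in Jack (adjusted p = 0.00836). Of 9 clock and evening complex list IDs, 2 fell with NaCl in leaves of each genotype, 3 rose and 4 fell in GmNFYA roots, and 3 rose and 2 fell in Jack roots. Of all tested IDs 36.1 and 33.6% differed in GmNFYA and Jack leaves and 56.7 and 56.9% in GmNFYA and Jack roots. The counts of clock list IDs were below that background in leaves, near it in Jack roots and above it in GmNFYA roots (7 of 9). The largest rise was that of 04G050200 in roots (log2 1.35 ± 0.15 in GmNFYA and 1.06 ± 0.15 in Jack). In leaves the largest fall was that of 12G073900 (log2 -0.73 ± 0.23 in GmNFYA and -1.14 ± 0.23 in Jack). Of the 7 flowering MADS list IDs that the tables held, 4 were tested in leaf and 3 in root. With NaCl, 1 rose and 2 fell in Jack roots (56.9% of all tested IDs differed) and 1 fell in GmNFYA roots (56.7%). In leaves 1 rose with NaCl in Jack (33.6%) and 0 passed in GmNFYA (36.1%). Between genotypes 0 passed in root in either treatment. In GmNFYA against Jack leaves, 2 passed the test as higher with NaCl and 2 untreated, beside 9.61 and 4.51% of all tested IDs. Of these, 05G018800 had the larger difference (log2 1.30 ± 0.20 with NaCl, adjusted p = 0.00147, and 2.03 ± 0.21 untreated, adjusted p = 0.000122).

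Among 39002 other IDs, the pattern of log2 CPM over the 24 libraries was most like that of E3 for 15G166500 (Pearson r = 0.993), most like that of E4 for 13G251200 (r = 0.953) and most like that of Dt1 for 08G271600 (r = 0.987). The libraries share organs, treatments and genotypes, and r is a description without a test. For E3, both 15G166500 and the next ID, 14G193000 (r = 0.993), had levels near 0 in root and higher levels with NaCl than untreated in leaf. With RLE scaling the next ID was 18G127200 instead (r = 0.992). For Dt1, 08G271600 averaged 167 CPM with NaCl and 316 CPM untreated in GmNFYA roots and 383 CPM with NaCl and 800 CPM untreated in Jack roots, which is the order of groups that Dt1 had.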

How the data were processed

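Leaf and root RNA from 24 soybean libraries, 3 in each of 8 groups by organ, genotype and treatment, was extracted with TRIzol and made into Illumina libraries, per the labels' protocols. The authors deposited raw read counts per gene ID, 1 table an organ, in which replicates were kept apart. The submitters' processing notes name HISAT2, featureCounts and DESeq2 without role or version, and the sources used here give no genome build, annotation or strand setting. Each table had 57110 rows, of which 57105 were gene IDs and 5 held reads given to no gene, in the form htseq-count writes, and these 5 stayed out of library sizes and tests. Gene IDs took 70.8 to 81.2% of the reads of a library, and reads with more than 1 alignment, which count for no gene, took 4.87 to 10.3%, so that the counts of similar copies such as E1La and E1Lb are uncertain. Sample columns were matched to the labels by name, and 0 were left unused.

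The deposited counts were fitted per organ over 4 groups with edgeR 4.0.16 in R 4.3.3 (quasi-likelihood F test, robust, TMM scaling with factors of 0.899 to 1.10, filterByExpr with a minimum count of 10), which tested 35222 leaf and 36390 root IDs. Comparisons between organs used 1 fit of 39003 IDs over all 24 libraries (TMM factors 0.819 to 1.17). P-values were adjusted by Benjamini-Hochberg over all tested IDs, with a threshold of 0.05. The steps were tested on simulated counts. Levels per library are CPM with joint TMM factors, likeness is Pearson's r of log2 CPM with a prior count of 2 between each of the 9 genes with a mean of 1 CPM or more and every other ID of the 24-library fit, and intervals are exact at 95%. Alternatives were DESeq2 1.42.0, RLE scaling, no low-count filter, only the compared groups, a replicate block, each library left out, and a genotype difference averaged over both treatments, which was added after the data were seen. No pair of replicates within a group had the same counts or agreed within sampling noise (lowest chi-square per degree of freedom 3.28).

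The 9 genes and the pathway lists were chosen with earlier results of these data known. All 9 are described in every comparison, and within a list the called IDs with the largest rise and the largest fall may be named. A RefSeq gene table shares 0 IDs with the count tables, and sequences were not used here. Positions in that table served only to check the order of genes on chromosomes 4, 16 and 19, which was that of the IDs.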

Additional observations from a re-analysis of the deposited data

Results flagged for a closer look

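The difference in the NaCl response of E3 between the organs was singled out because an interaction test passed. In GmNFYA plants it was 0.71 ± 0.15 on the log2 scale, leaf minus root (edgeR's quasi-likelihood test, adjusted p = 0.000673), from a log2 fold change of 0.63 ± 0.10 in leaves and -0.11 ± 0.14 in roots. It was 0.65 to 0.85 when 1 of the 12 GmNFYA libraries was left out, with an adjusted p of up to 0.00313. In Jack the difference was 0.32 ± 0.15 and did not pass (adjusted p = 0.117). Whether the difference between the organs differed between the genotypes was not tested. Groups of 3 libraries are too small for the outlier test used for larger groups.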

How the results depend on the processing

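Counts of the tested genes called that moved were as follows. The main fits tested 5 of the 9 genes in leaf, 3 in root and 6 over both organs. For GmNFYA against Jack in untreated leaves, 1 gene was called, and 0 were with no low-count filter, a replicate block or only the compared groups, and 2 over both treatments. In leaves with NaCl 0 were called, 1 by DESeq2 and 2 over both treatments. Of all IDs there, edgeR called 1287 higher and 2097 lower of 35222, and DESeq2 1811 and 2614 of 35214. For NaCl in GmNFYA roots 0 were called, and 1, Dt1, by DESeq2, with a replicate block or with only the compared groups. Of 36390 IDs there, edgeR called 10410 higher and 10230 lower, and DESeq2 10247 and 10147. For NaCl in Jack roots 2 were called, and 1 with no low-count filter, and for genotype in roots with NaCl 2 were called, and 1 with only the compared groups. For organ by NaCl, 1 was called in GmNFYA and 2 by DESeq2, and in Jack 0 were called and 1 by DESeq2 or RLE scaling. Of all IDs in GmNFYA, edgeR called 6320 higher and 6823 lower of 39003, and DESeq2 6970 and 7204 of 38999. In Jack edgeR called 4876 IDs higher and 5536 lower, DESeq2 4722 and 6739, and RLE scaling 4267 and 6149. Shares of all IDs with no low-count filter, a replicate block or only the compared groups are not given. The cause of these moves was not tested. The fit of only the compared groups held fewer libraries and also had its own scaling and estimate of the spread.

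When 1 library was left out, the counts ranged from 0 to 0 for genotype in untreated leaves, 0 to 1 for NaCl in GmNFYA roots, 0 to 2 for NaCl in Jack roots, 0 to 2 for genotype in roots with NaCl, 1 to 2 for organ by NaCl in GmNFYA, 0 to 1 in Jack, and 1 to 2 for genotype over both treatments in leaves. In the other comparisons run the count stayed as it was. These counts are given without the shares of all IDs called in the same fits. Log2 fold changes that changed sign ran from -0.43 to 0.11 (E1La) and -0.10 to 0.92 (E1Lb) for NaCl in GmNFYA leaves, from -0.61 to 0.046 (E1La) and -0.062 to 0.43 (E1Lb) in Jack leaves, from -0.33 to 0.14 (E1) for genotype in untreated leaves and from -0.55 to 0.091 (E1Lb) in leaves with NaCl. Leaf interactions ran from -0.60 to 0.019 (E1), -0.26 to 0.52 (E1La), -0.22 to 0.82 (E1Lb) and -0.020 to 0.12 (E4), and root interactions from -0.045 to 0.16 (E4) and -0.39 to 0.19 (Dt1). None of these passed the main test. Over both treatments the E3 genotype difference had the opposite sign to the untreated one, -0.0041 in leaves and -0.084 in roots.

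Deviations of same-numbered libraries correlated above 0.1 in 4 of 18 leaf pairs, at up to 0.255, and in 1 of 18 root pairs. The median correlation was 0.034 in leaf, against -0.013 for differently numbered pairs, and -0.0096 in root, against 0.0052. Whether replicate numbers pair the leaf libraries is not settled by these values. The replicate block changed the counts for genotype in untreated leaves and for NaCl in GmNFYA roots, and no other count. RLE scaling and DESeq2 moved the median of all IDs by under 0.1 on the log2 scale. Depth limits the E1-family and FT genes, with at most 36 reads in a library.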
